A study of Danio rerio with 30 samples.

Results

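Somite muscle precursors of the zebrafish embryo were described here at 12 hours post fertilization (hpf), as single cells from whole embryos that had lost factors of the unfolded protein response and from their controls. A cell was taken as a muscle precursor when its barcode held at least 1000 unique molecular identifiers (UMIs), at most 10% mitochondrial UMIs, at least 1 UMI of myod1 and at least 1 UMI in 3 or more of the 7 muscle genes myog, actc1b, mylpfa, smyd1b, ttn.1, ttn.2 and acta1a. This rule gave 1054 cells of 64631 kept barcodes, which is 1.63%, and 29.2% of the 3612 kept cells with a myod1 UMI. The 8 rule genes chose the cells, so their levels, and every comparison of these cells with other cells or among themselves, are descriptions without a test.

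Skeletal muscle of the zebrafish trunk arises from the presomitic mesoderm, which is divided into somites as oscillating genes of the her family stop and the genes mespaa and ripply1 mark the next boundary. Myf5 and MyoD, the product of myod1, commit cells to the muscle fate, Myogenin drives differentiation, and Mef2 proteins switch on the genes of the contractile apparatus. Adaxial cells beside the notochord differentiate first and become slow fibres under Hedgehog signalling, with the repressor Prdm1a and the slow myosin gene smyhc1 as their marks, while the lateral cells of the somite mostly become fast fibres later.

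In the libraries used here the study targeted 4 genes, xbp1, atf6, creb3l1 and creb3l2, whose products are transcription factors that respond to load in the endoplasmic reticulum, to ask what they do for secretory machinery in the embryo. Each library held whole TL/AB embryos, about 30 pooled, at 12 hpf. The groups were quadruple loss (xbp1, atf6 and creb3l2 targeted in creb3l1 mutants, 2 libraries); xbp1 and creb3l2 targeted in creb3l1 mutants, atf6 and creb3l2 targeted in creb3l1 mutants, creb3l2 targeted in creb3l1 mutants, and xbp1 with atf6 targeted in wild type (1 library each); single crispants of xbp1, atf6, creb3l1 and creb3l2 (1 each); homozygous creb3l1 mutants of a stable line (2); tyr crispants, in which the pigment gene tyrosinase was cut as a control (2); and uninjected wild type (2). A crispant is an embryo injected with Cas9 and guide RNA at the 1-cell stage, so it is usually a mosaic of edited cells, and pooling hides how embryos differ. The labels do not say whether the creb3l1 mutants were injected, and they were taken as uninjected. Nothing states that replicate libraries came from separate clutches, so p-values measure only the spread between these libraries. Most groups had 1 library, so the edgeR fits over all libraries took the effects of the losses as additive. Any departure from additive effects enters the spread of those fits.

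The 16 libraries came in sets A and B of 8, processed with different versions of the counting software. They held 1784 to 6122 kept barcodes and 21 to 119 muscle precursors each, with the fewest in the creb3l1 crispant library and the first wild-type library (23). The summed UMIs of the muscle precursors were 386830 to 2546530 per library. Muscle precursors had a median of 14384.5 UMIs and 3089 genes per cell, and other kept cells 15156 UMIs and 3201 genes. Levels are given in CPM, the UMIs of a gene scaled to the summed UMIs of a library's cells of that kind. Because the method counts transcript ends, levels of different genes were not compared with each other. High doublet scores marked 45 of the 1054 muscle precursors, and 675 of 70861 distinct barcode sequences occurred in 2 or more libraries.

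Apart from myf6, the muscle genes of this paragraph belong to the rule, so their levels follow from how the cells were chosen. The median myod1 level over the 16 libraries was 950 CPM in muscle precursors, 53.6 CPM in presomitic mesoderm cells and 8.56 CPM in all other cells. The presomitic cells, 7189 in number, were non-members with a UMI in at least 3 of tbx6, tbx16, msgn1, her1, her7, mespaa and ripply1. Their sums were not free of other tissues: he1.1 of the hatching gland had a median of 491 CPM and lmo2 of blood and endothelium 119 CPM. All other cells had 457 and 111 CPM. Neural sox3 and epidermal krt4 were lower in presomitic cells, at 66.5 and 44.4 CPM against 281 and 391 CPM. The giant sarcomeric proteins titin, from ttn.1 and ttn.2, and the myosin methyltransferase gene smyd1b carried most cells over the threshold: ttn.1 was found in 98.2%, ttn.2 in 96.1% and smyd1b in 89.8% of muscle precursors. The actin genes acta1a and actc1b were found in 50.9% and 46.2%, and myog, the differentiation factor, in 23.0%. Among other cells, at nearly the same depth, 11.8% had a ttn.1 UMI and 0.105% a myog UMI. The fast myosin light chain gene mylpfa was found in 2.37% of muscle precursors, and myf6, a late myogenic factor, in 0.190%.

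Neural, epidermal and hatching gland markers were low, while notochord and sclerotome lists were mixed. Every one of 7 neural and 7 epidermal genes was lower in muscle precursors than in other cells in all 16 libraries. The hatching gland protease gene he1.1 had a median of 7.40 CPM in muscle precursors and 457 CPM in other cells, yet 9.39% of muscle precursors and 10.4% of other cells had a UMI of it. At least 2 of 7 notochord markers were found in 23.5% of muscle precursors and 10.3% of other cells, and their summed level had medians of 311 and 273 CPM. Among them the transcription factor gene noto was at 2.45 CPM in muscle precursors against 55.8 CPM in other cells and the Hedgehog ligand gene shha at 0.879 CPM against 27.9 CPM. The Brachyury gene tbxta, which presomitic cells also use, was at 50.7 CPM in muscle precursors and 79.2 CPM in other cells, but was found in 27.3% and 16.7% of these cells. Of 9 listed notochord genes the 1 higher in every library was ntd5, at 254 CPM in muscle precursors, 37.3 CPM in presomitic cells and 66.6 CPM in other cells. Of 7 sclerotome and dermomyotome markers, at least 2 were found in 26.0% of muscle precursors and 11.5% of other cells, with summed levels of 826 and 293 CPM as medians. In that list meox1 was higher in muscle precursors in 16 libraries and the dermomyotome gene pax7b, at 2.45 CPM, in 13. Pax3a, at 42.2 CPM against 127 CPM in other cells, was higher in 0 libraries, pax7a in 2 and twist1a in 1. The sclerotome gene pax1a had no UMI in any muscle precursor, and pax9 had none in 14 libraries.

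Beyond the rule, contractile genes were broadly higher in the summed UMIs of the muscle precursors. The sums do not mean that all cells shared these levels. In the 481 cells with exactly 3 of the 7 muscle genes, 45.6% of muscle precursors, pooled levels were 5.24 CPM for desma, 23.9 CPM for tpma and 475 CPM for myl10. Of 28 sarcomere and excitation genes with at least 5 CPM, 19 were higher in muscle precursors than in other cells in every library and none was lower in every library, with a median log2 ratio of 3.32. Over all 8787 genes at that level, 11.6% were higher in every library and 18.5% lower in every library, and the median log2 ratio was -0.09. The myosin light chain gene myl10 ranged from 1249 to 5588 CPM in muscle precursors, with a median of 3338 CPM, against 25.9 CPM in other cells. Cardiac-type alpha actin actc1a had a median of 758 CPM in muscle precursors and 9.65 CPM in other cells. Tropomyosin tpma was at 309 and 0.764 CPM, and troponin I tnni2b.1 at 422 and 2.23 CPM, in muscle precursors and other cells. Each of these 4 genes was higher in muscle precursors in 16 of 16 libraries, and no muscle-precursor library overlapped with the other cells.

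Genes of fibre architecture were also higher, and desma, nexn, musk and efemp2a were named for the same ratio. Desmin, from desma, which links myofibrils into the cell's scaffold, had a median of 153 CPM in muscle precursors and 0.420 CPM in other cells. The actin-binding gene nexn stood at 149 and 0.523 CPM in muscle precursors and other cells, and musk, the receptor kinase of the neuromuscular synapse, at 55.4 and 0.117 CPM. The extracellular fibulin gene efemp2a had 419 CPM in muscle precursors and 2.41 CPM in other cells. Chaperones of myosin folding accompanied the contractile genes: unc45b was at 716 CPM in muscle precursors and 14.7 CPM in other cells, and hsp90aa1.1, the muscle Hsp90, at 1238 and 23.2 CPM. Of 20 cytosolic heat shock genes 5 were higher and 2 lower in every library, beside 11.6% and 18.5% of all genes. Their median log2 ratio was -0.08, beside -0.09 over all genes.

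Among 22 myogenic regulators, 12 were higher in muscle precursors in every library and 4 lower in every library, with a median log2 ratio of 2.1. The determination gene myf5 had 1210 CPM in muscle precursors, 543 CPM in presomitic cells and 73.2 CPM in other cells. The transcription factor gene mef2d, chosen after its values were seen, had 500, 34.6 and 11.6 CPM in the same order. The muscle RNA-binding protein gene rbm24a had 826, 38.8 and 16.7 CPM. Thus myf5 was also present in presomitic cells, while mef2d and rbm24a differed more between muscle precursors and presomitic cells. The cell cycle inhibitor gene cdkn1ca was at 876 CPM in muscle precursors, 175 CPM in presomitic cells and 182 CPM in other cells.

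Genes of the presomitic mesoderm were also found in the muscle precursors. Of the muscle precursors 79.2% had UMIs of at least 2 of the 7 presomitic genes, against 19.3% of other cells. Msgn1, a factor of the presomitic mesoderm, had a median of 2244 CPM in muscle precursors, 1865 CPM in presomitic cells and 259 CPM in other cells, and was found in 59.4% of muscle precursors and 22.1% of other cells. Tbx6, mespaa and ripply1, which act at the forming boundary, were higher in muscle precursors than in presomitic cells in all 16 libraries, with tbx6 at 248 and 130 CPM, mespaa at 118 and 42.3 CPM and ripply1 at 427 and 134 CPM. The oscillating gene her7 lay the other way, at 257 CPM in muscle precursors and 431 CPM in presomitic cells, and higher in muscle precursors in 1 library. Presomitic cells were chosen on these genes. The somite genes tcf15, at 664 CPM, meox1, at 734 CPM, and the boundary fibronectin fn1b, at 615 CPM, were above presomitic cells (346, 487 and 430 CPM) in 16, 13 and 16 libraries.

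**Figure D1:**
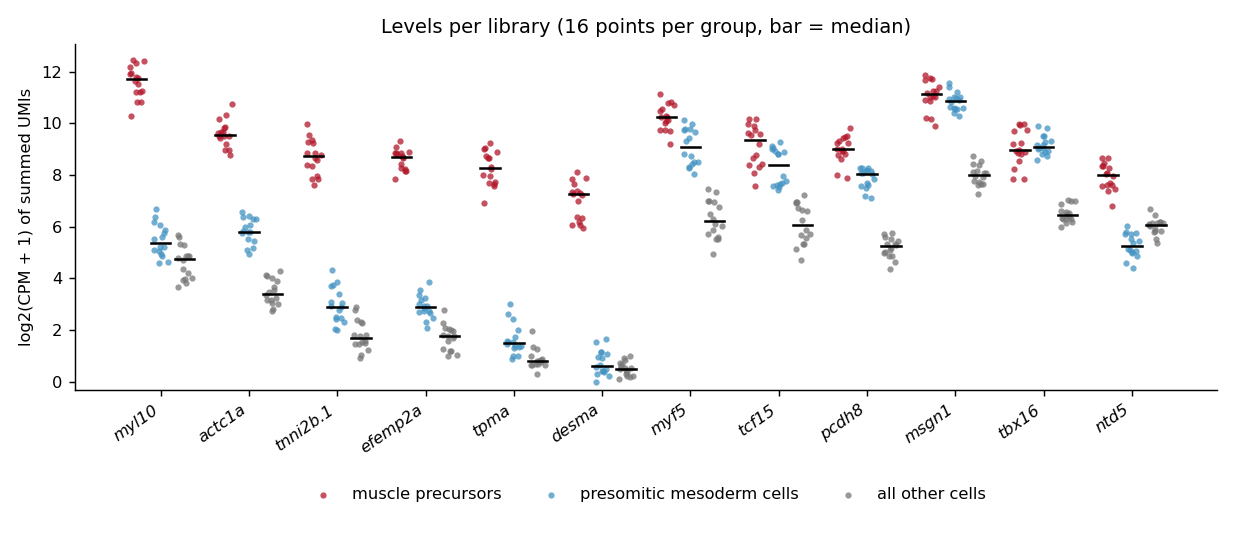
Levels of 12 genes, as log2(CPM + 1) of summed UMIs, in muscle precursors, presomitic mesoderm cells and all other cells. Each point is 1 of 16 libraries and each bar a median. The 6 contractile and structural genes at the left, among those chosen for the largest ratio to other cells, separate muscle precursors from both other groups. Msgn1 and tbx16 lie at similar levels in muscle precursors and presomitic cells.

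Cell cycle genes were mostly lower, and secretory genes were lower at about the share of all genes. Of 27 cell cycle genes 21 were lower in muscle precursors than in other cells in every library and 1 was higher, with a median log2 ratio of -0.79. The replication clamp gene pcna was at 445 CPM in muscle precursors and 1168 CPM in other cells, and the proliferation marker mki67 at 277 and 430 CPM. Of 121 secretory pathway genes 5 were higher and 21 lower in every library, near the 18.5% of all genes that were lower, with a median log2 ratio of -0.18 beside -0.09 over all genes. One of those that were higher was serpinh1b, the collagen chaperone, at 703 CPM in muscle precursors and 237 CPM in other cells. Of the targeted factors, xbp1 was lower in muscle precursors in all 16 libraries, at a median of 60.5 CPM against 358 CPM in other cells. Medians for atf6 were 26.9 and 38.8 CPM, for creb3l1 5.52 and 8.22 CPM, and for creb3l2 6.45 and 14.3 CPM, in muscle precursors and other cells.

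The muscle precursors were not uniform. At the threshold of the rule, 481 cells had exactly 3 of the 7 muscle genes, 378 had 4 or 5 and 195 had 6 or 7, and 544 further myod1-positive cells just outside the rule had 2. Median UMIs per cell were 14639 at 3 genes, 13973.5 at 4 or 5 and 14398 at 6 or 7, and 15678 just outside. The level of myod1 was 603, 943 and 1786 CPM over the 3 steps and 408 CPM just outside, and that of ttn.1 was 861, 1629 and 3554 CPM and 436 CPM just outside. High doublet scores marked 4.57%, 5.03% and 2.05% of the cells over the steps and 7.90% of those just outside. Because the rule's genes define the steps, the other genes are a description of them. Of these, dmrt2a, cdk1, pcdh8 and foxc1b were chosen after their values were seen. The share of all genes that differed between steps in every library is not given, so such counts are no measure of the named genes. Serpinh1b, for instance, was also higher at 6 or 7 than at 3 in 16 of 16 libraries.

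Contractile genes outside the rule were higher at each step, while tcf15, dmrt2a and proliferation genes were lower. Over 3, 4 or 5, and 6 or 7 genes, myl10 was at 475, 2826 and 12449 CPM, tpma at 23.9, 241 and 1438 CPM, and desma at 5.24, 58.6 and 668 CPM. All 3 were higher at 6 or 7 than at 3 in 16 of 16 libraries. The slow myosin gene smyhc1 was at 1.1, 28.8 and 954 CPM, and prdm1a at 44.0, 128 and 441 CPM. In the other direction, the paraxial factor tcf15 was at 1011, 544 and 117 CPM and the somite transcription factor gene dmrt2a at 212, 103 and 8.58 CPM, both lower at 6 or 7 in 16 of 16 libraries. Proliferation genes also decreased over the steps, with mki67 at 402, 216 and 104 CPM, the mitotic kinase gene cdk1 at 123, 66.3 and 27.4 CPM and pcna at 589, 431 and 167 CPM. The inhibitor gene cdkn1ca increased, at 525, 988 and 1306 CPM.

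Presomitic and other somite genes did not share 1 course over the steps. Msgn1 was at 1717, 2866 and 1341 CPM and ripply1 at 532, 290 and 541 CPM, so neither moved in a single direction. Tbx6 increased, at 175, 295 and 572 CPM, and was higher at 6 or 7 than at 3 in 15 of 16 libraries. Mespaa was at 69.2, 129 and 254 CPM and was higher at 6 or 7 in 12 libraries. The protocadherin gene pcdh8, at 384, 557 and 734 CPM, and the forkhead factor gene foxc1b, at 92.1, 152 and 155 CPM, were higher at 6 or 7 in 15 and 14 libraries. Expression of ntd5 was 99.9, 249 and 678 CPM, higher in 16 of 16 libraries. The targeted factor xbp1 stayed at 91.3, 73.4 and 84.8 CPM.

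**Figure D2:**
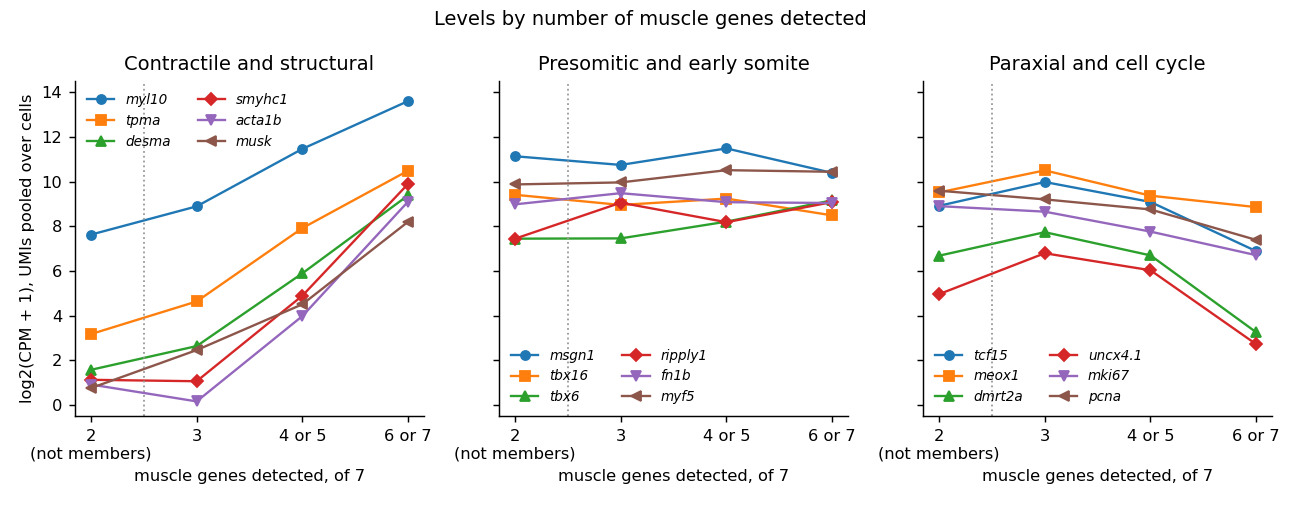
Levels of 18 genes, as log2(CPM + 1) of UMIs pooled over cells, by the number of the 7 muscle genes detected in a myod1-positive cell. Points left of the dotted line are the 544 cells just outside the rule. Contractile genes such as myl10 increase (475, 2826 and 12449 CPM), tcf15, dmrt2a and the proliferation genes decrease, and msgn1 and ripply1 show no single direction.

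A UMI of the slow-muscle genes prdm1a, smyhc1 or smyhc2 was found in 567 of the 1054 muscle precursors, which is 53.8%. With every cell thinned to 3000 UMIs, and 54 shallower muscle precursors left out, the share was 31.3% of 1000 muscle precursors and 7.98% of other cells. Prdm1a, which is also used in other tissues, made up most of this, with 27.9% of muscle precursors and 7.51% of other cells. For smyhc1 the shares were 10.5% and 0.0856%, in muscle precursors and other cells. The thinned share of cells with a slow-muscle UMI was 12.0% at 3 muscle genes, 33.9% at 4 or 5 and 75.4% at 6 or 7.

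The 567 cells with and the 487 cells without a slow-muscle UMI had similar depth, with median UMIs of 14580 and 14292. The genes named in this paragraph and the next were chosen after their values were seen. The share of all genes that were higher or lower in every library is not given, so such counts are no measure of these genes. The heat shock gene hspb1, for instance, was also higher in cells with a slow-muscle UMI in 16 of 16 libraries. Cells with a slow-muscle UMI had more of the contractile programme, with median tpma of 504 CPM against 55.1 CPM, desma of 244 against 9.59 CPM, and mef2d of 811 against 164 CPM in cells without one. All 3 were higher in 16 of 16 libraries, and myl10, at 5314 against 710 CPM, in 15. The Hedgehog target gene gli1, a transcription factor, was at 66.4 CPM in cells with a slow-muscle UMI and at 32.3 CPM in cells without. It was higher in 16 of 16 libraries, as were ntd5 (332 against 120 CPM) and msgn1 (2853 against 1311 CPM).

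Somite genes went both ways. Tcf15 had a median of 157 CPM in cells with a slow-muscle UMI and 1326 CPM in cells without, and meox1, a somite homeobox gene, 327 and 1628 CPM. Dmrt2a was at 15 and 247 CPM, and uncx4.1, which marks the posterior somite, at 3.78 and 119 CPM. The follistatin gene fsta, a secreted inhibitor of activin and BMP signals, was at 58.4 and 370 CPM, the Notch target hey1 at 5.77 and 66.1 CPM, and vwde at 0.880 and 101 CPM. All 7 were lower in cells with a slow-muscle UMI in 16 of 16 libraries. The boundary gene ripply1 was also lower in all 16 libraries, at 285 against 674 CPM, although msgn1 was higher in them. Other somite and presomitic genes were also higher in cells with a slow-muscle UMI, with pcdh8 at 736 against 321 CPM and foxc1b at 179 against 77.6 CPM, both in 16 libraries, and mespaa at 150.0 against 63.7 CPM in 15.

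**Figure D3:**
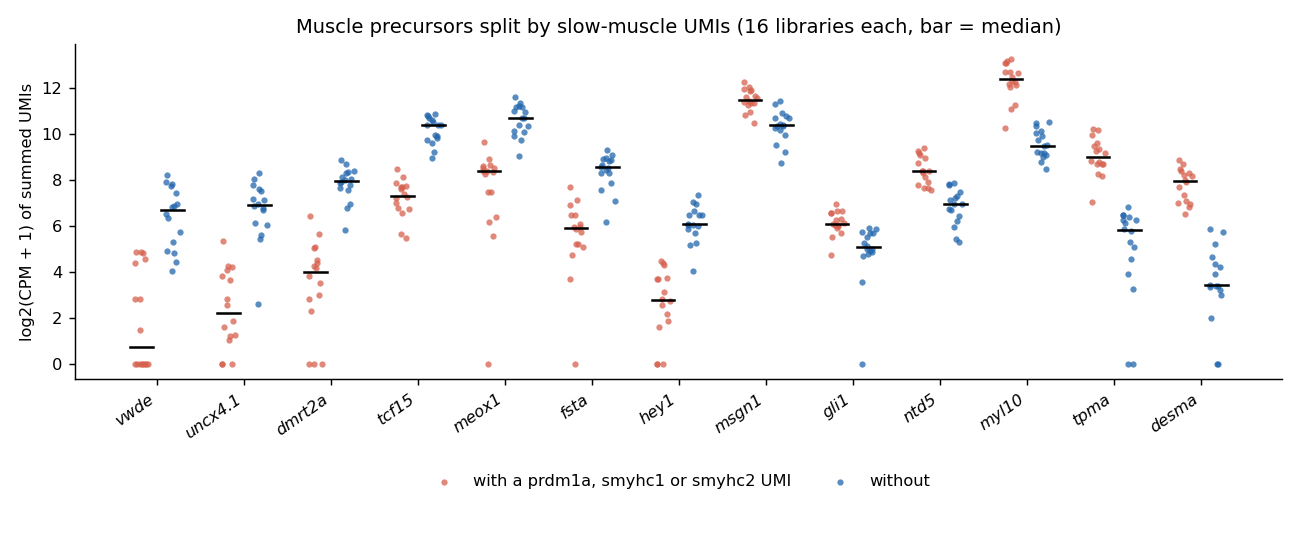
Levels of 13 genes, as log2(CPM + 1) of summed UMIs, in muscle precursors with a prdm1a, smyhc1 or smyhc2 UMI and in those without. Each point is 1 of 16 libraries and each bar a median. Vwde to hey1 lie lower in the cells with a slow-muscle UMI (tcf15 157 against 1326 CPM), and msgn1 to desma lie higher (tpma 504 against 55.1 CPM).

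The share of muscle precursors among kept cells was compared between libraries for the loss of each factor and for injection, 5 comparisons in all, with a two-sided exact permutation test. Each comparison was taken alone, without terms for the other losses, injection or set. Loss of atf6 gave the greatest difference of the 5. The 5 libraries without atf6 had 1.45% (atf6 crispant), 2.72% (xbp1 and atf6), 2.68% (atf6, creb3l2 and creb3l1), 1.48% and 2.47% (quadruple loss), against a lowest, median and highest of 0.724%, 1.39% and 2.12% in the 11 libraries with intact atf6. Thus 3 of the lost libraries lay above all intact ones, and the others, with the atf6 crispant, lay among them. All 3 had also lost other targeted factors, so loss of atf6 cannot be told apart from these combinations. The means were 2.16% ± 0.641 for lost (SD, n = 5) and 1.39% ± 0.439 for intact atf6 (SD, n = 11), a difference of 0.77 percentage points, with an exact permutation p of 0.0137 and 0.0687 after Benjamini-Hochberg adjustment over 5 comparisons, which did not pass 0.05. Within sets A and B the differences were 0.72 and 0.73 points. With all cells thinned to 3000 UMIs the difference was 0.40 points, with an adjusted exact permutation p of 0.150. Leaving out the atf6 crispant, the first quadruple, the creb3l2 with creb3l1 or the second tyr library gave 0.949, 0.941, 0.845 and 0.824 points, and then the adjusted p passed. The atf6 crispant and the first quadruple library had the lowest shares of those without atf6. The creb3l2 with creb3l1 and the second tyr library had the highest of those with it intact.

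The other comparisons of the share did not pass. For xbp1 the means were 1.90% lost and 1.51% intact, for creb3l1 1.71% and 1.54%, for creb3l2 1.94% and 1.44%, and for injection 1.76% injected and 1.24% not injected. The exact permutation p-values were 0.25, 0.590, 0.112 and 0.145, and the adjusted values 0.312, 0.590, 0.242 and 0.242, in that order. The thinned share of muscle precursors with a slow-muscle UMI ran from 23.0% to 50.0% per library. For it the lost and intact means were 37.4% and 31.7% for xbp1, 37.1% and 31.8% for atf6, 36.2% and 30.7% for creb3l1 and 36.7% and 31.5% for creb3l2, and the injected and uninjected means were 32.3% and 37.0%. None of these passed, with an adjusted exact permutation p of 0.398 for all 5. For xbp1 the difference was -5.80 points within set A and 11.8 points within set B. The sets also disagreed in direction for creb3l1 (-1.46 and 6.65 points), creb3l2 (-1.37 and 11.8 points) and injection (2.46 and -2.23 points), but not for atf6 (5.98 and 8.80 points). In set B the libraries that had lost xbp1 were the same as those that had lost creb3l2. The 11.8 points are thus the same difference, and these factors cannot be told apart there.

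Injection of Cas9 and guide RNA gave the clearest difference between groups in the muscle precursors. Summed UMIs were tested with edgeR's quasi-likelihood test in a model with additive terms for the loss of each of the 4 factors, for injection and for the set. The p-values were adjusted by Benjamini-Hochberg over 7441 genes. Between 12 injected and 4 uninjected libraries 20 genes, or 0.269% of those tested, were called at an adjusted p of 0.05, of which 19 were higher and 1 lower in injected libraries. Genes of the response to DNA damage stood out by number: of 35 listed 24 were tested, 8 were called, all higher, and 22 had a positive log2 fold change, with a median of 1.06 against 0.01 over all genes tested. That list was drawn up with these results known.

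The gene with the smallest p was ccng1, cyclin G1, a gene of the damage response. Its level in injected libraries had a lowest, median and highest of 1473, 2698 and 4579 CPM, and the uninjected libraries had 212 and 305 CPM (wild type) and 467 and 377 CPM (creb3l1 mutants). Every injected library was above every uninjected one, and the log2 fold change was 2.55 (SE 0.25, edgeR adjusted p 0.000109). Mdm2, a ubiquitin ligase gene, had 88.4, 209 and 329 CPM in injected libraries and 12.9 to 26.5 CPM in uninjected ones, a log2 fold change of 2.63 (SE 0.32, edgeR adjusted p 0.000908). Phlda3, an inhibitor of Akt in mammals, had 27.7, 97.5 and 158 CPM in injected and 0 to 3.79 CPM in uninjected libraries (log2 fold change 4.35, SE 0.53, edgeR adjusted p 0.000908). For mdm2 and phlda3 too, the groups did not overlap in any of the 16 libraries.

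Of the further called genes, the ribosomal protein-like gene rps27l rose by a log2 fold change of 2.35 (SE 0.31, edgeR adjusted p 0.00188, higher in 12 of 12 injected libraries), and the sestrin gene sesn3 by 4.03 (SE 0.55, edgeR adjusted p 0.00191, 12 of 12). The initiator caspase gene casp8 was at 14.7, 45.3 and 82.9 CPM in injected and 0 to 3.79 CPM in uninjected libraries, a log2 fold change of 3.69 (SE 0.57, edgeR adjusted p 0.00711). Bbc3, which encodes the pro-apoptotic protein Puma, had 0.790, 5.65 and 25.0 CPM in injected libraries and 0, 0, 0 and 0.948 CPM in uninjected ones, so its groups overlapped (edgeR adjusted p 0.0331). The Wnt agonist gene rspo1 had 3 to 43 UMIs in each of the 12 injected libraries and no UMI in the 4 uninjected ones (edgeR adjusted p 0.0174).

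**Figure D4:**
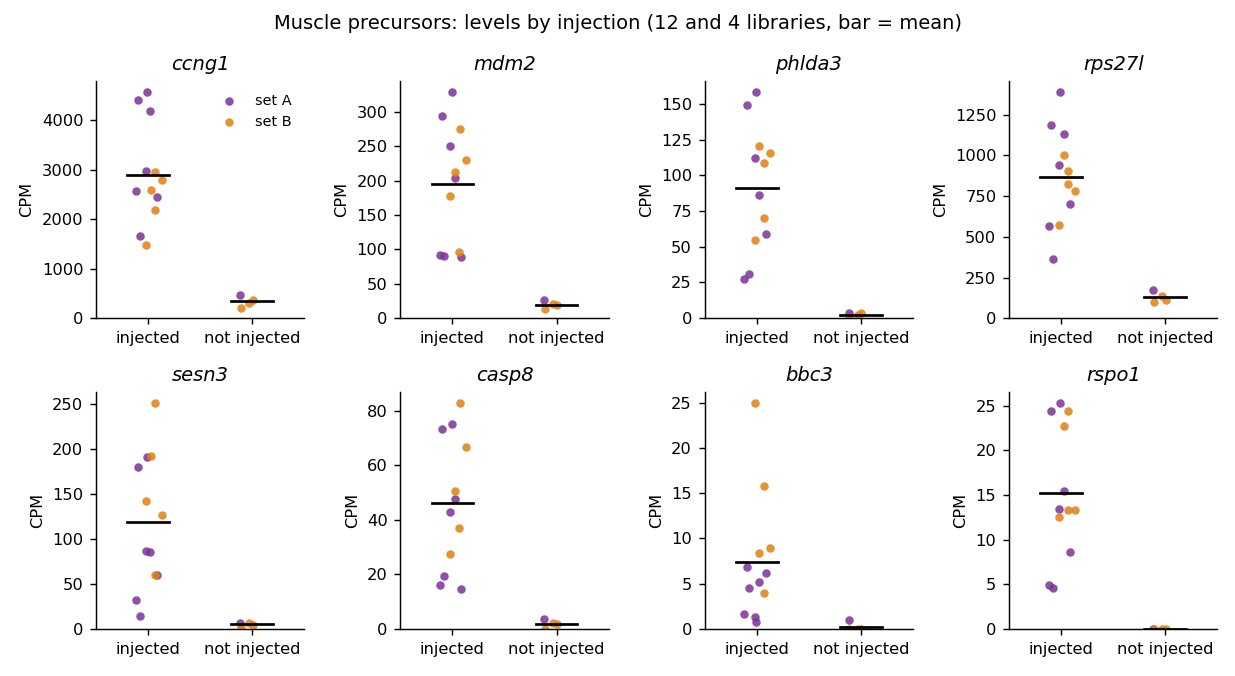
Levels of 8 called genes, in CPM of summed UMIs of muscle precursors, in 12 injected and 4 uninjected libraries, coloured by set; bars are means. For ccng1 the injected libraries sit between 1473 and 4579 CPM and the uninjected between 212 and 467 CPM; of the 8 genes bbc3 is the one whose groups overlap.

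Muscle genes did not pass in the injection comparison. Of 28 sarcomere genes tested none was called, where 0.269% of all genes were. Of the 28, 22 had a negative log2 fold change, with a median of -0.29 beside 0.01 over all genes. Of 21 myogenic regulators 14 were negative, with a median of -0.29, and of 28 extracellular matrix genes 22, with a median of -0.24. In other cells too ccng1 differed between the groups, at 1511 to 4269 CPM in injected and 324 to 712 CPM in uninjected libraries. A test of whether the injection difference itself differed between muscle precursors and all other cells called 0 genes (0.0%), with 295 of 7441 (3.96%) at an unadjusted p under 0.05 in edgeR and also 0 with other scaling factors (RLE); DESeq2 was not run for it. For ccng1 that difference was 0.50 on the log2 scale (SE 0.11, edgeR adjusted p 0.660).

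The number of injection calls changed with single libraries. It was 12, 9 and 7 without the first creb3l1 mutant, the second creb3l1 mutant and the second wild-type library, and 6 without the creb3l1 crispant, an injected library. Without both creb3l1 mutant libraries 1 gene was called. Ccng1, mdm2, phlda3 and rps27l were called in each of 16 fits that left out 1 library. All 5 xbp1, 5 atf6 and 6 creb3l2 losses were in injected libraries.

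Loss of xbp1 called no gene in the muscle precursors by edgeR (0.0% of 7441), with 340 genes, or 4.57%, at an unadjusted p under 0.05 and 2 called by DESeq2. The level of xbp1 itself was 16 CPM in xbp1 crispants, 31.6 CPM in xbp1 and atf6 crispants, 26.9 CPM in xbp1 and creb3l2 crispants of the creb3l1 mutant line and 31.7 and 26.7 CPM with quadruple loss. In the 11 libraries with intact xbp1 the lowest, median and highest were 38.7, 79.9 and 204 CPM. The groups did not overlap, but the log2 fold change of -1.61 (SE 0.38) had an edgeR adjusted p of 0.725. Leaving out the xbp1 crispant, the first creb3l1 mutant, the second tyr or the second wild-type library gave 1 call each. A lower level of a transcript in crispants is no measure of how many cells were edited. The targeted gene atf6 fell with loss of atf6 by 2.77 on the log2 scale (SE 0.35, edgeR adjusted p 0.00406) and was the 1 gene called (0.0134%). It was at 3.40, 1.29, 5.69, 12.2 and 8.90 CPM in the atf6 crispant, the xbp1 and atf6, the atf6, creb3l2 and creb3l1 and the quadruple libraries, against 20.0, 29.4 and 52.5 CPM as lowest, median and highest with intact atf6. The groups did not overlap, and the call was lost without the atf6, creb3l2 and creb3l1 library, when 0 genes were called, while 2 were called without the creb3l2 crispant and 3 without the second tyr or the creb3l1 crispant library.

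Secretory genes, the known targets of these factors, showed no called change in muscle precursors. Of 139 listed 112 were tested and none was called with loss of any factor, where at most 2 of all 7441 genes were. Their median log2 fold changes were -0.02 for xbp1, -0.05 for atf6, -0.07 for creb3l1 and -0.16 for creb3l2. Medians over all genes were between -0.01 and 0.01. The secretory share of UMIs was 1.1% ± 0.105 with xbp1 lost (SD, n = 5, 0.943% to 1.2%) and 1.18% ± 0.100 with xbp1 intact (SD, n = 11, 1.05% to 1.34%), so the groups overlapped. In all other cells it was 1.1% ± 0.0949 with xbp1 lost and 1.36% ± 0.127 with xbp1 intact (SD, n = 5 and 11). In presomitic cells it was 1.04% ± 0.0795 with xbp1 lost and 1.22% ± 0.135 with xbp1 intact (SD, n = 5 and 11). The mean of muscle precursors with xbp1 intact thus lay below that of all other cells and near that of presomitic cells.

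That contrast was tested gene by gene as the difference of the xbp1 effect between muscle precursors and all other cells, with each library as a block. The difference was positive for 89 and negative for 23 of the 112 secretory genes, with a median of 0.21 beside -0.00 over all genes, and 34 had an unadjusted p under 0.05 where 355 of all 7441 genes (4.77%) did. None was called. The nearest were genes of the translocation channel and its associated complex, ssr4 at 0.51 (SE 0.09), ssr3 at 0.38 (SE 0.07) and sec61g at 0.38 (SE 0.06), each with an edgeR adjusted p of 0.0655. In muscle precursors ssr3 was at 583, 545, 453, 335 and 478 CPM with xbp1 lost (xbp1, xbp1 and atf6, xbp1 with creb3l2 and creb3l1, and quadruple libraries) and at 452 to 803 CPM with xbp1 intact. In other cells ssr3 was at 356 to 554 CPM with xbp1 lost and at 552 to 970 CPM with xbp1 intact. So ssr3 overlapped widely between the groups in muscle precursors and barely in other cells.

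The only gene called for this difference (0.0134%) was twist2, a notochord gene at this stage, at 4.68 (SE 0.69, edgeR adjusted p 0.0363). Its UMIs in muscle precursors lay in few cells: 55 in 4 cells of the first creb3l1 mutant library, 44 in 1 cell of the xbp1, creb3l2 and creb3l1 library and 29 in 2 cells of the creb3l2 and creb3l1 library, while 5 libraries had none. The call was kept in 5 of 16 fits that left out 1 library. The number of genes called was 7 without the first wild-type library, 2 without the second tyr library, 1 without the xbp1 crispant, the second wild-type or the second quadruple library and 0 without any of the 11 remaining ones.

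**Figure D5:**
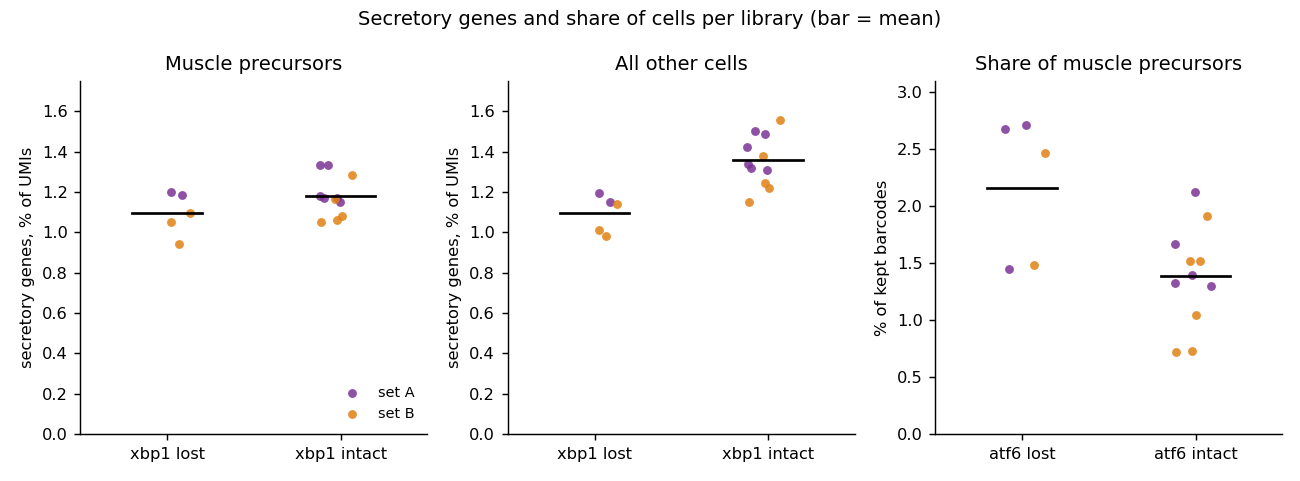
Secretory genes as a percentage of UMIs in muscle precursors and in all other cells by xbp1 loss, and the share of muscle precursors among kept barcodes by atf6 loss; each point is 1 library, coloured by set, and bars are means. In other cells the xbp1 groups average 1.1% and 1.36%, lost and intact, in muscle precursors 1.1% and 1.18%; 3 of 5 libraries without atf6 lie above all 11 with it in the share of muscle precursors.

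Loss of creb3l1 called 2 genes (0.0269%). All libraries with creb3l1 lost, except the creb3l1 crispant, were of the stable mutant line. The background of that line thus cannot be told apart from loss of creb3l1. Admp, a BMP-family ligand of the organizer and midline, rose by 2.40 on the log2 scale (SE 0.36, edgeR adjusted p 0.0300). It was at 44.9, 89.2 and 187 CPM as lowest, median and highest of 8 libraries with creb3l1 lost and at 7.85, 15.5 and 33.5 CPM in 8 with it intact. The groups did not overlap, with 5 to 171 admp UMIs per library in 3 to 27 cells. In other cells admp was at 12.9 to 46.3 CPM with creb3l1 lost and at 6.27 to 21.3 CPM with it intact, which overlap. The acyl-CoA binding protein gene dbi fell by 1.00 (SE 0.16, edgeR adjusted p 0.0300), to 111, 160 and 224 CPM with creb3l1 lost, against 184, 415 and 459 CPM with it intact, and these groups overlapped. In other cells dbi was at 118 to 230 CPM with creb3l1 lost and at 222 to 473 CPM with it intact.

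The creb3l1 calls depended on single libraries. Admp was called in 12 and dbi in 7 of 16 fits without 1 library. The number of genes called was 16 without the creb3l1 crispant, 11 without the second tyr library and 5 without the first wild-type or second quadruple library. It was 1 without the xbp1 crispant, the xbp1 and atf6, the atf6, creb3l2 and creb3l1, the xbp1, creb3l2 and creb3l1 or the first quadruple library, and 0 without the creb3l2 crispant, the creb3l2 and creb3l1, the second wild-type or the second creb3l1 mutant library. Transcripts of creb3l1 itself were 0 to 15.8 CPM with creb3l1 lost and 1.23 to 15.5 CPM with it intact, with means of 8.08 and 5.61 CPM and a fitted log2 fold change of the other sign, -0.51 (SE 0.55, edgeR adjusted p 0.867). The libraries therefore could not be checked by the transcript, whose level does not report whether the protein is intact.

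Loss of creb3l2 called 0 genes by edgeR (0.0%), with 425, or 5.71%, at an unadjusted p under 0.05, and 2 by DESeq2. Of 112 secretory genes 83 had a negative log2 fold change and 12 an unadjusted p under 0.05, and none was called. Described here are 3 of them, chosen after their values were seen, in 6 libraries with creb3l2 lost and 10 with it intact. Their groups did not overlap, but the share of all tested genes without overlap is not given, so this is no measure of the list. The ER retention receptor gene kdelr3 was at 0 to 4.21 CPM lost and 7.49 to 31.0 CPM intact (log2 difference -3.07, SE 0.51, edgeR adjusted p 0.104). The COPII coat gene sec31a was at 17.4 to 32.9 CPM lost and 35.1 to 52.9 CPM intact (-0.98, SE 0.19, edgeR adjusted p 0.209), and the ER calcium-binding gene rcn3 at 0 to 1.11 CPM lost and 2.50 to 13.3 CPM intact (edgeR adjusted p 0.221). Creb3l2 itself was at 0 to 6.09 CPM lost and 2.50 to 13 CPM intact (-1.84, SE 0.67, edgeR adjusted p 0.797). Leaving out the creb3l1 crispant gave 2 calls.

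Muscle genes were not called with loss of any of the 4 factors. With xbp1 lost 23 of 28 sarcomere genes were negative, with a median log2 fold change of -0.31 and a median SE of 0.49, and with atf6 and creb3l2 lost 21 and 23 were positive, with medians of 0.19 and 0.22 and median SEs of 0.48 and 0.63. None of 21 myogenic regulators, 10 slow-muscle genes or 35 segmentation genes was called. Over all 7441 genes tested, 0, 1, 2 and 0 were called for xbp1, atf6, creb3l1 and creb3l2. Lists of this size would thus hold no call at the share of all genes, and the lack of calls says little about muscle genes.

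The 3 direct comparisons used 8 libraries in 4 groups of 2, fitted with edgeR over 7010 genes with a term for the set. Where leaving out a library leaves 1 in a group, the spread comes from the other groups, and the lone library is assumed to vary like them. Quadruple loss against tyr crispants called 3 genes, all lower (0.0428%): si:dkey-269i1.4, zgc:174855 and si:dkey-239j18.2, each with an edgeR adjusted p of 0.0338. The first was at 0 and 1.11 CPM with quadruple loss and 91.3 and 45.6 CPM in tyr crispants, where its 56 UMIs in the first library lay in 1 cell and its 116 in the second in 24 cells. All other libraries were between 1.23 and 6.98 CPM, so the tyr crispants stood apart from the wild type too. The other called genes also lay in few cells of the first tyr library, which had 51 muscle precursors. There zgc:174855 was in 5 cells and si:dkey-239j18.2 in 3, against 31 and 22 of 115 in the second. The summed level of 4 hatching gland markers was 186 and 133 CPM in the tyr crispants, against a median of 20.2 CPM over all libraries. The second tyr library also had the highest epidermal sum, 603 CPM, and the highest neural sum, 370 CPM. The first, at 88.0 and 89.6 CPM, did not. High doublet scores marked 9.57% of muscle precursors in the second tyr library, the highest share of all libraries. Ctslb was at 1.22 and 8.90 CPM with quadruple loss and 109 and 73.0 CPM in tyr crispants, in 7 and 34 cells of these. He1.1 was at 7.31 and 10.0 CPM with quadruple loss and 65.2 and 39.7 CPM in tyr crispants, in 2 and 24 cells of these. The part of these hatching gland genes in the result was not tested. Secretory genes were negative in 87 of 111, with a median of -0.30 beside 0.02 over all genes, and none was called. The count was 26, 32 and 28 without the first tyr, the first and the second creb3l1 mutant library, and 0 without either quadruple library.

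Tyr crispants against wild type called 3 genes, all higher (0.0428%). Ccng1 was at 2566 and 2184 CPM in tyr crispants and 212 and 305 CPM in wild type (log2 fold change 3.01, SE 0.29, edgeR adjusted p 0.00616), and phlda3 at 27.7 and 70.29 CPM in tyr crispants and 0 and 2.33 CPM in wild type (edgeR adjusted p 0.0467). The third, szl, which encodes a secreted inhibitor of the proteases that cleave Chordin, had 1 UMI in the first and 132 UMIs in 10 cells of the second tyr library and none in wild type (edgeR adjusted p 0.0483). The count was 14, 9, 16 and 14 without the first tyr, the second tyr, the first creb3l1 mutant and the second creb3l1 mutant library, 1 without the first quadruple library and 0 without either wild-type or the second quadruple library. Homozygous creb3l1 mutants against wild type called 0 genes by edgeR (0.0%), with 241, or 3.44%, at an unadjusted p under 0.05, 0 by DESeq2, and 6 without the second mutant library.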

How the data were processed

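The data are single-cell libraries made with 10x 3' V3 chemistry. The authors deposited matrices of UMI counts per gene and barcode. The headers of the matrices name Cell Ranger 3.1.0 (8 libraries, set A) and 6.1.2 (8 libraries, set B). The genome build is not given in the sources used here. Of 71539 barcodes at 12 hpf 64631 passed. The libraries at 8 hpf and those of V3.1 chemistry were not used here. The 27597 features carry 26847 symbols, matched ignoring case, and counts of features that share a symbol were summed.

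UMIs of the muscle precursors were summed per library and tested with edgeR 4.0.16 (TMM, filterByExpr, quasi-likelihood F-test, Benjamini-Hochberg) in R 4.3.3; DESeq2 1.42.0 was an alternative. The fits had 9 (16 libraries) and 3 (8 libraries) residual degrees of freedom, and the steps were tested on simulated data. The SE given with an edgeR log2 fold change is its absolute value divided by the square root of the F statistic. Ratios between cell kinds are log2 of (CPM + 1). Shares were compared by two-sided exact permutation over libraries. Doublets were kept. Scrublet (scanpy 1.11.5) found no workable automatic threshold in most libraries, so the highest scores, 0.8% per 1000 barcodes, were removed as an alternative.

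The members and gene lists were chosen with earlier results of these data known. Named genes are those of the rule, the 4 factors and the cell type markers. Also named are, per comparison, the 10 called genes of smallest p and 5 of largest fold change. The called and highest members of each list and the 20 genes of largest ratio to other cells were added. Others, among them mef2d and myf6, were chosen after their values were seen. PCR and counting errors were not separated. Replicate numbers did not pair libraries (correlations of deviations -0.265 to 0.301). Results of some genes are not reported here, and these genes are left out of the lists.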

Additional observations from a re-analysis of the deposited data

Results flagged for a closer look

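Of 33 groups of libraries examined for a library far from the others, 3 had one. In these 3 the other libraries were tied at 0, where any UMI stands apart, so no chance rate applies. All 3 were the first creb3l1 mutant library among the 4 uninjected ones, where it was highest and the others were at 0: si:dkey-40h20.1 at 3.79 CPM, si:ch73-56d11.5 at 0.948 CPM and bbc3 at 0.948 CPM, the last being 1 UMI. The effect of xbp1 loss on twist2 differed between muscle precursors and all other cells by 4.68 on the log2 scale in a test of the difference itself (edgeR adjusted p 0.0363). That call was kept in 5 of 16 fits without 1 library.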

How the results depend on the processing

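Numbers of genes called depended on the fit, and the cause was not tested unless the change itself leaves out genes or libraries. In the order xbp1, atf6, creb3l1, creb3l2 and injection, no low-count filter gave 52, 45, 97, 46 and 82 calls. Set A alone gave 30, 13, 25 and 7 for the 4 losses. Leaving out the creb3l1 mutants gave 1, 3 and 0 for xbp1, atf6 and creb3l1 and 1 for injection. No injection term gave 2, 6 and 4 for atf6, creb3l1 and creb3l2. DESeq2 gave 2, 9 and 2 for xbp1, creb3l1 and creb3l2 and 7 for quadruple loss against tyr. Requiring 4 of the 7 muscle genes gave 0 for creb3l1, 1 for injection, 0 for quadruple against tyr, 1 for tyr against wild type and 0 for the xbp1 difference from other cells. Without the highest doublet scores 1 gene was called for creb3l2 and 1 for tyr against wild type. Without a set term 0 were called for creb3l1 and 0 for the xbp1 difference, and library totals gave 4 for that difference. No filter gave 103, 46 and 38 for quadruple against tyr, tyr against wild type and mutant against wild type, and 84 and 45 for the xbp1 and injection differences. A setting chosen after seeing the data, without the 2 libraries of fewest muscle precursors, gave 3, 17 and 3 for atf6, creb3l1 and injection, and 6 and 1 for the xbp1 and injection differences.

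Leaving out 1 library at a time gave 0 to 1 calls for xbp1, 0 to 3 for atf6, 0 to 16 for creb3l1, 0 to 2 for creb3l2, 6 to 28 for injection, 0 to 32 for quadruple against tyr, 0 to 16 for tyr against wild type, 0 to 6 for mutant against wild type, 0 to 7 for the xbp1 difference and 0 to 1 for the injection difference. The atf6 difference in the share of muscle precursors ranged from 0.632 to 0.949 points. The injection difference in the share with a slow-muscle UMI, -4.67 points, turned to 0.115 points as the mean of within-set differences, the 1 result that reversed. With the replicate block, quadruple against tyr had 4 calls, tyr against wild type 1 and mutant against wild type 0, although the numbers do not pair libraries. Of 531 combinations of 24 named genes and settings, 380 kept direction and call, 151 kept direction only and none reversed. With 21 to 119 cells per library, genes of a few UMIs limit every comparison.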

Other observations

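With creb3l2 lost, none of 24 damage response genes tested was called by edgeR. Of them 17 had a positive log2 fold change, with a median of 0.49 beside -0.01 over all genes. In edgeR 9 had an unadjusted p under 0.05, where 425 of all 7441 genes (5.71%) did. The damage response list was drawn up with these results known. The summed level of that list in muscle precursors was 5684 to 8938 CPM in the 6 libraries with creb3l2 lost, 1486 to 7376 CPM in the 10 with it intact, and 1486 to 1896 CPM in the 4 uninjected libraries, which all have intact creb3l2. The highest of all libraries were creb3l2 with creb3l1 (8938 CPM) and atf6 with creb3l2 and creb3l1 (8387 CPM), and tyr crispants had 4683 and 4509 CPM.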
